A study of Mus musculus with 2 samples.

Results

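The Prader-Willi and Angelman domain of mouse chromosome 7 was examined for CTCF in newborn midbrain. It was defined by 5 genes, Ube3a, Snrpn, Ndn, Magel2 and Mkrn3, and by the span from 20 kb outside Ube3a to 20 kb outside Mkrn3, the farthest listed gene. On assembly mm10 this is chromosome 7 from 59208750 to 62440139, a length of 3.23 Mb. Of the 68590 peaks of the optimal list on chromosomes 1 to 19 and X, 31 had their summit in the span, out of 4432 on chromosome 7. The genes and the span were chosen by name and position, and the rule uses no measured value.

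The data are CTCF chromatin immunoprecipitation with sequencing (ChIP-seq) of midbrain from the B6NCrl mouse strain, taken at postnatal day 0, with no genotype change or treatment in the labels. There was 1 group of 2 replicates, which the labels call biological replicates. Both carry the same tissue and donor record, so that differences between them may be technical only. Sex was not collected. The strain is inbred and the deposited lists hold positions and signals only, so the maternal and paternal alleles cannot be told apart in any value given here. With 1 group, no condition was compared and no p-value is given.

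CTCF recognises a long DNA motif that has a direction, through an array of zinc fingers. With the cohesin ring it holds the bases of chromatin loops, preferentially where motifs on either side of a loop point toward each other. In the Prader-Willi and Angelman domain, genes are expressed from only one parental chromosome. Snrpn, Ndn, Magel2 and Mkrn3 are expressed from the paternal chromosome under an imprinting centre at the main Snrpn start, which is methylated on the maternal chromosome. Ube3a is expressed mainly from the maternal chromosome in neurons, where a long paternal transcript running antisense to it, Snhg14, carries clusters of small nucleolar RNAs (snoRNAs).

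Motif sequences are shown first, because the results below turn on their copies and orientation. They were read from the GRCm38.p6 sequence, the build of mm10, each 5′ to 3′ on the strand of its match. The 20 bases of the match to the CTCF weight matrix are in capitals, with 10 bases on each side in lower case. The first is the match in the Ube3a intron at chr7:59245717-59245756, plus strand.
Ube3a intron: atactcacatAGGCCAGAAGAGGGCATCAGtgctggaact

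The next 5 lie on the plus strand in a repeated sequence that runs away from Snrpn on its upstream side, at chr7:60238968-60239007, chr7:60387141-60387180, chr7:60488224-60488263, chr7:60617446-60617485 and chr7:60728501-60728540. The first 4 hold the same 20 bases in capitals. The last differs from them by A4C, counted from 1 at the first capital letter, with the base of the other copies first.
Copy 1: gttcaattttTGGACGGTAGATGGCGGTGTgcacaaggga
Copy 2: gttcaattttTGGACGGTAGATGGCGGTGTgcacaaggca
Copy 3: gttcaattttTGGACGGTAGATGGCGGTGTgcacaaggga
Copy 4: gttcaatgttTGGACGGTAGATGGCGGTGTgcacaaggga
Copy 5: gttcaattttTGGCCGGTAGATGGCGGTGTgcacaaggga

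A further 3 lie on the plus strand on the Snrpn side of Ndn, at chr7:62071999-62072038, chr7:62179589-62179628 and chr7:62209568-62209607. They are shown because they face the matches around Magel2.
Upstream of Ndn 1: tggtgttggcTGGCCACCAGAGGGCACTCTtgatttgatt
Upstream of Ndn 2: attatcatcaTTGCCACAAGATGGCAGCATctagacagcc
Upstream of Ndn 3: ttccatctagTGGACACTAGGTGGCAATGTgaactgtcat

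The last 7 are those around Magel2 and Mkrn3. The first 6 are on the minus strand, at chr7:62375829-62375868, chr7:62382588-62382627, chr7:62388474-62388513, chr7:62400356-62400395, chr7:62428513-62428552 and chr7:62433442-62433481. The seventh, at chr7:62436542-62436581, is on the plus strand.
Before Magel2: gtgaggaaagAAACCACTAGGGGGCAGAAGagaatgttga
After Magel2: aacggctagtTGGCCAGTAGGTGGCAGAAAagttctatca
Between 1: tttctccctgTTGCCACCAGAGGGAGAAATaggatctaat
Between 2: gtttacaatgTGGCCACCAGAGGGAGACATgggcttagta
Beyond Mkrn3 1: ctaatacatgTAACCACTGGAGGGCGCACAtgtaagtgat
Beyond Mkrn3 2: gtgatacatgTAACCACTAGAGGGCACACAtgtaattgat
Beyond Mkrn3 3: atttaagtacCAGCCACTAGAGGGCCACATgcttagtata

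CTCF peaks were sparse over the span as a whole and denser in parts of it, its far end among them. The span held 9.59 peaks per Mb, against 30.5 on chromosome 7 and 21.0 to 40.2 on the autosomes. From the start of Ndn to the end of the span, which takes in Ndn, Magel2 and Mkrn3, the density was 74.8 per Mb, with 7 peaks in 93.6 kb. The Ube3a section held 3 peaks (29.2 per Mb), the Snrpn gene 2 (12.7 per Mb) and the 2206 kb between Snrpn and Ndn 19 (8.61 per Mb). All 3 Ube3a peaks lay in the first 37.0 kb of the span (81.2 per Mb), a window that ends at the last of their summits. Between the end of Ube3a and Snrpn there was no optimal peak. These densities are descriptions of 1 set of peaks and their differences were not tested. The median distance between neighbouring summits was 27.9 kb in the span and 13.2 kb on the autosomes. Among the 7 peaks from Ndn onward, neighbouring summits stood 3101 to 28185 bp apart, on both sides of the autosomal median.

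**Figure D1:**
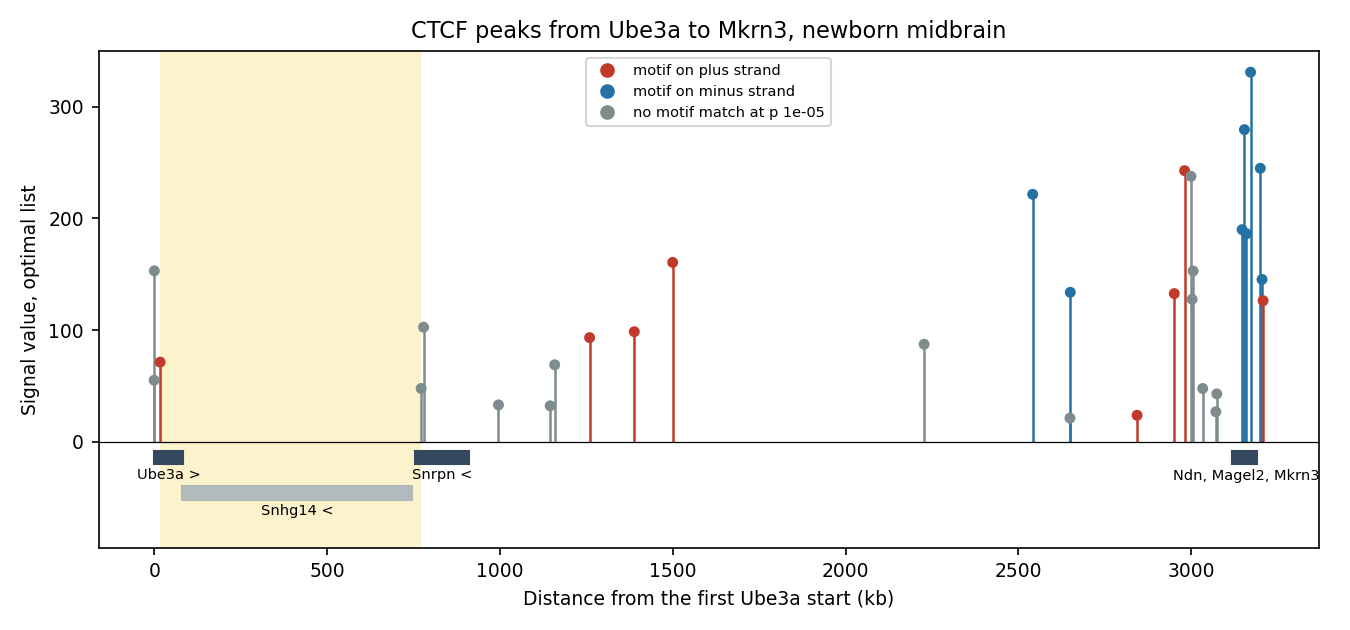
Each line is 1 peak of the optimal list at its distance in kb from the first Ube3a start (x axis), with its signal value (y axis) and the strand of its motif match in colour. Boxes below 0 are genes, with an arrow for their direction, and the shaded area is the longest stretch without a peak, 755 kb from the Ube3a intron to Snrpn.

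A signal value, which is the authors' own and has no stated scale, was given for each peak by both replicates together. In the span it ran from 21.1 to 331 with a median of 126, against a median of 76.5 over the whole list. The median peak of the span stood at percentile 63.1 of the list, and 20 of 31 peaks were at or above the list's median signal. None of the 31 was among the strongest 10% of the list and 3 were among the weakest 10%. The weak peaks of the span lay outside its far end. All 7 peaks from Ndn onward had signals of 126 or more, and the other 24 ranged from 21.1 to 243.

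The replicates ranked the peaks of the domain in much the same order. Of 31 peaks, 30 had a summit within 100 bp in both replicate lists, where 97.8% of all optimal peaks did. The remaining one, at 60387213, had a replicate 2 summit 36 bp away (signal 32.5) and a replicate 1 summit 107 bp away (36.7). Spearman's rho between the replicate signals was 0.969 over the 30 peaks, which share libraries and lie close together. The optimal list was itself thresholded on reproducibility, which favours such agreement. The log2 ratio of replicate 1 to replicate 2, centred on its median of 0.30 over all optimal peaks, had a median of 0.05 in the span and an SD of 0.53 over its peaks (0.46 over all peaks). It lay within 2-fold of the overall median for 28 peaks of 30 (94.8% of all peaks).

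Both exceptions were weak peaks higher in replicate 1. A peak at 61877896, which lies 32 bp upstream of the microRNA gene Mir344, had signals of 20.3 in replicate 1 and 5.13 in replicate 2 (centred log2 ratio 1.68). A peak at 62072025 had 18.4 and 4.24 (1.82). Neither was in the conservative list, which shared the summits of 27 of the 31 peaks, as of 86.9% of all optimal peaks. The other 2 missing from it were at 60224607 (signal 33.0) and 62299925 (26.8).

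**Figure D2:**
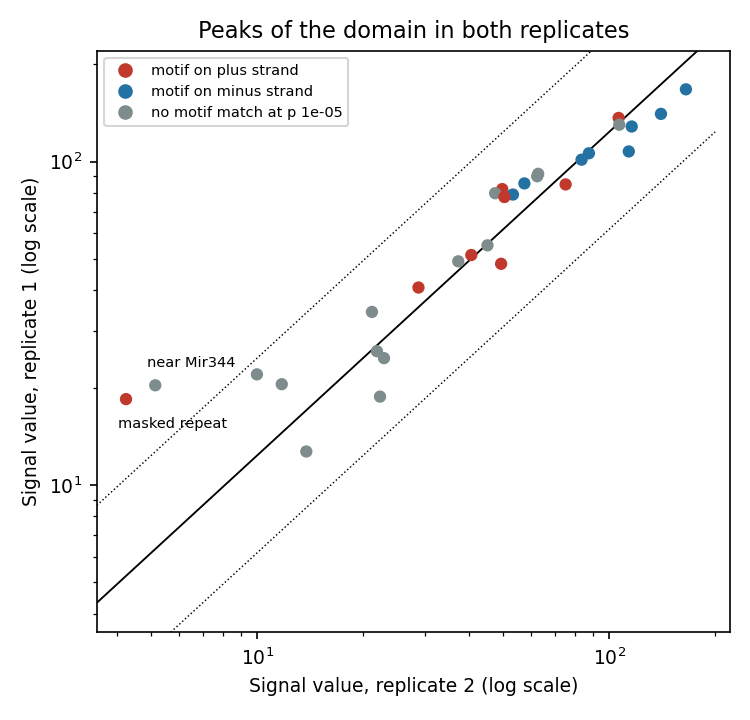
Each point is 1 of 30 peaks found in both replicate lists, with its signal value in replicate 2 (x axis, log scale) and replicate 1 (y axis, log scale), coloured by motif. The solid line is the median ratio over all optimal peaks and dotted lines are 2-fold either side; the points named near Mir344 and masked repeat lie beyond them.

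Ube3a encodes a ubiquitin ligase whose loss from the maternal chromosome causes Angelman syndrome. It lies on the plus strand at 59228750 to 59311536, and was the only 1 of the 5 genes with an optimal peak within 1 kb of an annotated start. Of 21755 protein-coding genes, 43.4% had one. That share counts any start of a gene. Ube3a has 16 annotated starts, Snrpn 2, and Ndn, Magel2 and Mkrn3 1 each. With the outermost start only, the count of the 5 was also 1. The peak closest to a start, at 59228903 to 59229070, had signals of 91.6 in replicate 1 and 62.8 in replicate 2, and 153 with both together (percentile 67.4). Its summit was 231 bp inside the gene from the first start, in the untranslated first exon. A weaker peak 372 bp upstream of that start, at 59228223 to 59228532, had signals of 34.3 and 21.2, and 55.0 together (percentile 39.1).

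The start of Ube3a differed in base composition from the other peaks of the span. Within 301 bp of sequence around the summit inside the gene, GC content was 66.4% with 34 CpG dinucleotides. The other 30 peaks had 30.6% to 53.5% GC and 0 to 12 CpG dinucleotides. Neither peak at the start held a motif match at a match probability of 1e-05. The best matches had 4.32e-05 inside the gene and 3.88e-04 upstream. This probability says how often random sequence of like composition scores as high at 1 position, so a lower value is a better match, and it compares no samples.

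Another Ube3a peak lay in an intron at 59245562 to 59245871, 2809 bp inside a later annotated start at 59242908. It was also inside an exon of 9330162G02Rik, a provisional antisense model, as were both peaks at the Ube3a start. The intron peak had signals of 40.8 and 28.7 in the replicates and 71.2 together (percentile 47.9). This peak held the plus strand match shown first above (match probability 7.84e-07). The whole of that match lies in repeat-masked sequence, as does 67.8% of the 301 bp around it. No optimal peak lay in the rest of the gene, including its overlap with Snhg14.

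The stretch from this intron peak to Snrpn was the longest without an optimal peak in the span. The next summit was 755.21 kb away, and 165 of 66953 distances between neighbouring summits on the autosomes were longer (15 of 4431 on chromosome 7). The stretch takes in all of Snhg14, the antisense host transcript, as GENCODE draws it (59307924 to 59975759), and the 210 annotated snoRNA genes of the span. The list called on both replicates together, before the thresholding by the irreproducible discovery rate (IDR), had 15 peaks in the stretch, with signals up to 18.1. The highest was at 59320704 in Snhg14, with 9.10 in replicate 1 and 7.65 in replicate 2, and it held a motif match (match probability 3.56e-07).

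The sequence of this stretch differs from the rest of the span. In the stretch 62.9% of bases are repeat-masked, 56.5% of 36-base words occur again in the span, and 6.62% is an assembly gap. Most of it is the section between the end of Ube3a and Snrpn. In that section 67.0% of bases are repeat-masked and 63.1% of such words occur again, against 2.27% to 17.0% in the other 4 sections. The assembly gap takes 7.45% of that section. How reads with more than 1 place in the genome were treated is not given in the sources used here. The part of repeated sequence in the absence of peaks was not tested.

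**Figure D3:**
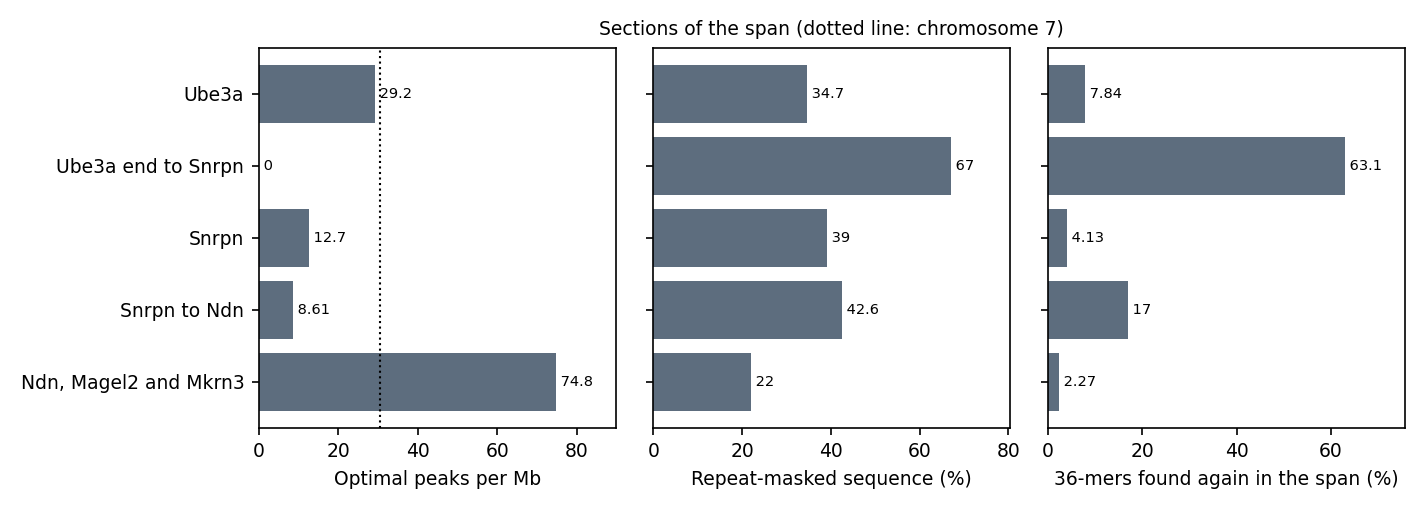
The bars give, for 5 sections of the span, optimal peaks per Mb (left, dotted line at 30.5 for chromosome 7), the share of bases that are repeat-masked (middle, percent) and the share of 36-base words that occur again in the span (right, percent). The section from Ube3a to Snrpn has 0 peaks and the highest values in both other panels.

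Snrpn encodes a core protein of the spliceosome in brain. It lies on the minus strand at 59982495 to 60140219, with annotated starts at 60005111, where the imprinting centre lies, and at 60140219, where upstream exons begin. No optimal peak lay within 1 kb of either start. The nearest was 2806 bp upstream of the main start, at 60007891 to 60007989, with signals of 55.1 in replicate 1 and 45.1 in replicate 2, and 103 together (percentile 57.9). A second peak, at 60000772 to 60001081 in the intron shared with Snurf, the gene of a small protein encoded at the same start, lay 4184 bp inside the main start. It had 24.7 and 22.9 in the replicates and 47.7 together (percentile 33.7). The 2 peaks thus stood 6.99 kb apart on either side of the main start.

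Neither Snrpn peak held a motif match. The best match probability was 0.00101 in the upstream peak and 3.50e-04 in the intron peak. GC content in 301 bp was 30.6% for the upstream peak, the lowest of the 31, with 2 CpG dinucleotides, and 36.5% for the intron peak, also with 2. The upstream peak is shown whole on the plus strand as an example of a peak above the list's median signal without a match, so nothing is in capitals.
Upstream of Snrpn: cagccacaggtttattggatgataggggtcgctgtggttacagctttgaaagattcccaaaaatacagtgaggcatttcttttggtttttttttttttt

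Weaker listings existed at the Snrpn starts themselves. The list called on both replicates had a peak 595 bp inside the main start (signal 8.19; 5.21 in replicate 1 and none within 1 kb in replicate 2). It had another 85 bp upstream of the far start (signal 7.85), where replicate 2 listed 5.24 and replicate 1 listed none within 1 kb. Neither of these was found in both replicate lists. At a further start in RefSeq, 60047978, both replicates listed a peak within 1 kb, 4.99 upstream of the start in replicate 1 and 5.60 inside the gene in replicate 2, and the list called on both replicates had none within 1 kb.

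On the upstream side of Snrpn, 6 optimal peaks fell in copies of 2 repeated sequences. Each sequence was found at 5 places in the span, counting places at least 80% identical over 201 bp, all in the same orientation and in alternation. The first sequence came 11.9 to 14.5 kb before the second in each of the 5 units. The units spread over 504 kb, from 60224607 to 60728535, where 35.2% of 36-base words occur again in the span. RefSeq, on the same assembly, places a far upstream start of both Snrpn and Snhg14 inside this block, at 60450177, and no optimal peak lay within 38 kb of it. Drawn from that start, Snhg14 would also run over the Snrpn peaks and the first repeated copies.

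The second sequence carried the stronger peaks. Its copies 2 to 5 had signals of 68.9, 93.2, 98.5 and 161, in order of distance from Snrpn. Replicate 1 gave 36.7, 51.4, 48.3 and 85.0 for them and replicate 2 gave 32.5, 40.6, 49.3 and 75.2. Copy 5 was the highest in both replicates and copy 2 the lowest of these 4 in both, while copies 3 and 4 changed order between replicates. Copy 1 was not in the optimal list. The list called on both replicates gave it 25.3, with 11.3 and 13.1 in the replicates, at a summit of 60239157, outside the motif match.

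All 5 copies held the motif, and in copies 1 to 4 its 20 bases were the same (match probability 7.55e-07). Copies 2 to 4, whose peaks cover the shared 20 bases, thus ran from 68.9 to 98.5 over 1 motif sequence. The weak peak at copy 1 begins past the end of its match. Replicate 1 also listed a peak of 11.2 closer to the centre of copy 1. Copy 5, with the A4C difference, had the better match (match probability 6.29e-08). Compared over 201 bp with the copy at 60488251, copy 5 was 87.6% identical and the other copies were 93.5% to 95.5% identical. Whether either difference has a part in the signal of copy 5 was not tested. In copy 2 the match was centred 52.5 bp from the summit, just outside the window used for the counts, so this peak is counted as without a motif.

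The first repeated sequence gave weak peaks at 2 of its 5 places. Peaks at 60224607 and 60374194 had signals of 33.0 and 32.1, with 22.0 and 20.5 in replicate 1 and 9.98 and 11.7 in replicate 2. Of the other 3 copies, 94.5% to 96.5% identical to the second of these over 201 bp, 1 was listed at 8.21 with both replicates together and 2 were not listed. No copy held a match at 1e-05. Reads from such copies can align to more than 1 place, so the signals of single copies rest on how the authors placed them, which was not tested.

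**Figure D4:**
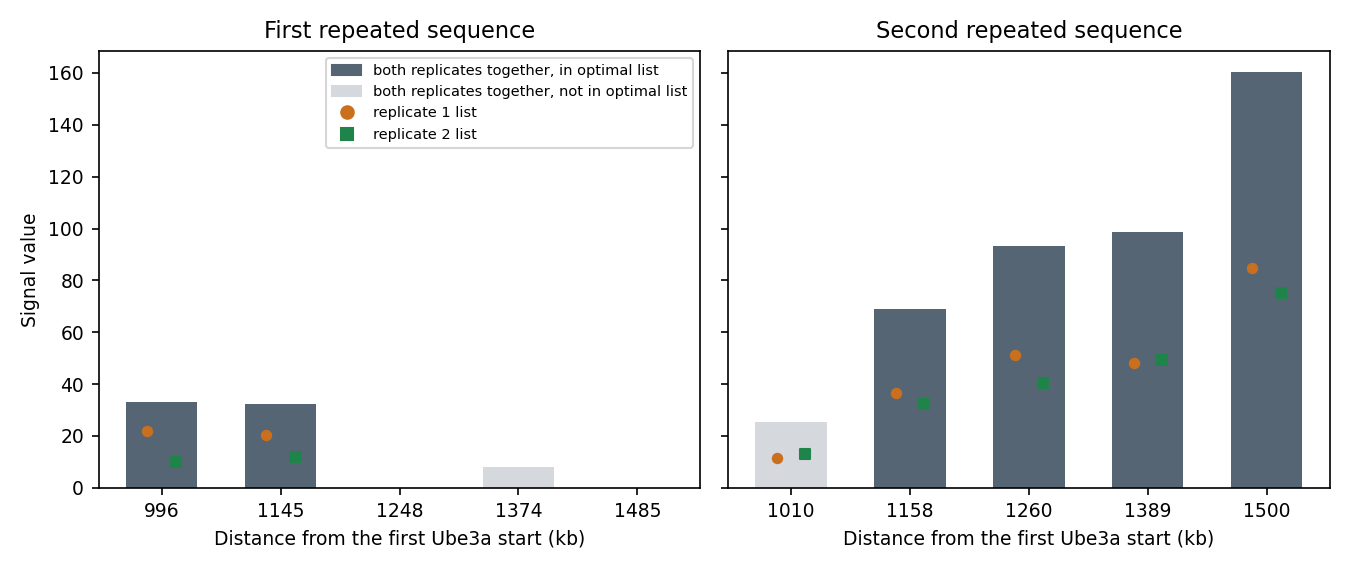
Bars give the signal value (y axis) from both replicates together at the 5 places of the first (left) and second (right) repeated sequence, ordered by distance from the first Ube3a start (x axis, kb); dark bars are in the optimal list. Points are the signals in each replicate's own list, and a place with neither bar nor point has no listed peak.

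Beyond these copies came the next longest stretch without an optimal peak, 727 kb from 60728535 to 61455997. In it 16.6% of 36-base words occur again in the span, and no assembly gap is present. The peak that ends it, at 61455997, had 49.1 and 37.2 in the replicates and 87.2 together. A stronger peak stood at 61770030 in an intron of the noncoding gene A230057D06Rik (107 and 114 in the replicates, 221 together), with a minus strand match (match probability 9.02e-06).

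The domain also holds a group of microRNA genes of the Mir344 family, part of 20 annotated microRNA genes in the span. Only Mir344 had an optimal peak within 1 kb, and it had a pair of them. The weak one named above lay next to the hairpin. The other, 915 bp upstream at 61878779, had signals of 79.1 and 53.3 and 134 together, with a minus strand match (match probability 8.52e-06). In the list called on both replicates 6 of the 20 had a peak within 1 kb. Among protein-coding genes the shares were 43.4% in the optimal list and 71.4% in the list called on both. Those shares count a peak near any start of a gene. Each microRNA gene was counted at 1 point, the annotated start of its hairpin, so the measures are unlike. The sequence at the Mir344 peak occurred again, 88.1% identical, at Mir344-2, where that list gave 19.6 (13.7 in replicate 1 and 4.37 in replicate 2). At both places the replicate 1 signal was the higher.

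A group of peaks stood on the Snrpn side of Ndn. From 62179615 to 62234202 there were 5, with signals of 133, 243, 238, 128 and 153. Replicate 1 gave 82.2, 136, 130, 79.8 and 90.0 for them, and replicate 2 gave 49.7, 106, 107, 47.4 and 62.4. The second lay 86 bp upstream of the start of the noncoding gene Gm9801. Both replicates put the peaks of 243 and 238 above the other 3. The first and second held plus strand matches (match probabilities 1.53e-08 and 1.47e-07).

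The other 3 of these peaks, within 6.29 kb of each other, held no match at the threshold used. Their best matches had probabilities of 2.00e-04, 1.55e-04 and 1.07e-04. One of them, at 62227791 to 62228031, was the strongest peak of the span without a match, and its sequence is shown whole on the plus strand with nothing in capitals.
Strongest without a match: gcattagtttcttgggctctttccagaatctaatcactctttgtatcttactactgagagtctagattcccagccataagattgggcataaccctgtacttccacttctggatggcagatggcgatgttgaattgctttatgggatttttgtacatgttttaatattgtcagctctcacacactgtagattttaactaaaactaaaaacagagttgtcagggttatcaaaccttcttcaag

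Between this group and Ndn there were 3 weak peaks without a match. At 62261823 the replicates gave 25.9 and 21.9 (47.6 together), at 62299925 they gave 12.7 and 13.8 (26.8), and at 62302594 they gave 18.8 and 22.3 (42.8). All 3 were below the list's median signal.

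Ndn encodes necdin, a protein of the MAGE family found in neurons after their last division. It lies on the plus strand at 62346569 to 62350262 and had no optimal peak in or near it. The closest summit was 29279 bp downstream of its annotated start, at Magel2, and on the other side the closest was 43975 bp upstream. RefSeq starts the gene at 62348277, and 66 bp upstream of that start the list called on both replicates had a peak of 15.5. Replicate 1 listed 16.0 there, 78 bp upstream of the start. In replicate 2 the closest was 645 bp inside the gene, at 6.61.

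Magel2 encodes a MAGE family protein that acts with a ubiquitin ligase in endosomal protein sorting. It lies on the plus strand at 62377010 to 62381640. A peak at 62375726 to 62375968 had signals of 106 in replicate 1 and 87.5 in replicate 2, and 190 together (percentile 72.5). Its summit was 1162 bp upstream of the start, so it missed the 1 kb window. With 5 kb, 3 of the 5 genes had a peak (Ube3a, Snrpn and Magel2), where 61.3% of protein-coding genes did. At the Magel2 start the list called on both replicates gave 14.9 (133 bp inside) and 13.3 (300 bp upstream), with 5.17 to 8.70 in the replicates.

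A run of strong peaks followed Magel2. A peak at 62382481 to 62382713, just past the end of the gene, had 140.4 in replicate 1 and 140.3 in replicate 2, and 279 together. Next came 62388397 to 62388602 with 101 and 83.4 (186 together). The strongest peak of the whole span, at 62400167 to 62400506, had 167 in replicate 1 and 165 in replicate 2, and 331 together (percentile 87.7). It was the highest in both replicates. All of these lie in an intron of the noncoding gene Gm32061 and in no coding gene.

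Mkrn3 encodes a zinc finger ubiquitin ligase that restrains the onset of puberty. It lies on the minus strand at 62417593 to 62420139 and had no optimal peak within 5 kb of its start. The strongest peak of the span was 19.8 kb from it on the side of its 3′ end. On the upstream side, 3 peaks stood 8.39, 13.3 and 16.4 kb away. At 62428533 the replicates gave 128 and 116 (245 together), at 62433461 they gave 85.6 and 57.4 (145), and at 62436562 they gave 77.7 and 50.4 (126). Both replicates placed them in that order. The list called on both replicates had a peak of 13.2, 598 bp inside Mkrn3. With that list 4 of the 5 genes had a peak within 1 kb of a GENCODE start, all but Ndn, where 71.4% of protein-coding genes did. This count takes in the Snrpn peaks of 8.19 and 7.85, neither found in both replicate lists. It leaves out the peak of 15.5 at the RefSeq start of Ndn.

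**Figure D5:**
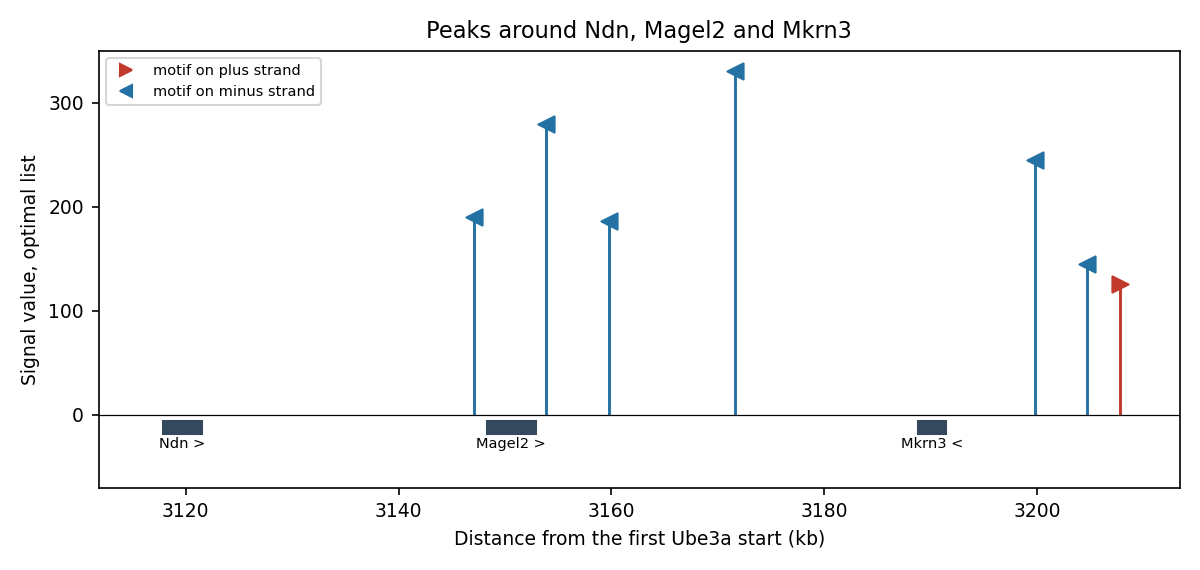
The 7 peaks from Ndn to the edge of the span are drawn at their distance in kb from the first Ube3a start (x axis) with their signal value (y axis). Triangles point in the direction of the motif match: 6 are on the minus strand and the last is on the plus strand; no peak stands at Ndn or at the Mkrn3 start.

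All 7 peaks around Magel2 and Mkrn3 held a motif match, with probabilities from 3.90e-08 to 2.84e-06, while 9 of the other 24 in the span did. In all, 16 of 31 peaks had a match within 50 bp of the summit, and 57.6% of peaks on odd-numbered autosomes and X did. Windows placed 1 kb away held one in 0.920% of cases. The median distance between summit and match centre was 4 bp. Signals were a median of 153 (23.7 to 331) with a match and 55.0 (21.1 to 238) without, in the same direction as on those chromosomes at large (127 and 49.7). Of the 17 peaks of signal 100 or more, 12 held a match, and of the 8 below 50, 1 did.

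That one weak peak had the best match of the span. At 62072025, the match probability was 3.08e-10 and the signal was 23.7 with both replicates together (percentile 5.51), the second lowest of the 31. All 20 bases of the match are repeat-masked. Only 1 other match of the 16 lay wholly in masked sequence, that in the Ube3a intron, and 12 lay wholly outside it. Whether the masked sequence has a part in the low signal was not tested.

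At the threshold used, motif strands formed runs along the domain. There were 8 matches on each strand. From Ube3a through the repeated copies all 4 counted matches were on the plus strand, 3 of them in copies of the second repeated sequence. Then 2 inside A230057D06Rik were on the minus strand, and the 3 upstream of Ndn were on the plus strand. The next 6, from Magel2 to beyond Mkrn3, were on the minus strand, so the matches upstream of Ndn and those around Magel2 and Mkrn3 pointed toward each other with Ndn between. The last, at 62436562, turned to plus. These runs depend on the threshold. The 2 matches inside A230057D06Rik (match probabilities 9.02e-06 and 8.52e-06) and the last match (2.84e-06) would not count at 1e-06. At 1e-04 a minus strand match at the Ube3a start (4.32e-05) would come before the first plus strand run. Loops were not measured, and the orientation of matches is a description of the sequence.

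Some of the motif sequences resembled each other beyond the copies upstream of Snrpn. The 2 minus strand matches beyond Mkrn3, 4.93 kb apart, shared 18 of 20 bases, and their 201 bp windows were 67.7% identical, where the median over 465 pairs of windows was 46.3%. Over 1001 bp their identity was 56.3%. Their signals were 245 and 145. The matches named between 1 and between 2 also shared 18 of 20 bases. A CpG dinucleotide, where DNA methylation can fall, was present in 4 of the 16 matches. Of these, 3 were in copies of 1 repeated sequence and 1 was beyond Mkrn3. The share among matches outside the span was not taken, and methylation was not measured.

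Peaks just outside the span were as follows. On the Ube3a side, the nearest optimal peak was 128 kb beyond the edge, at 59080290 (154 and 144 in the replicates, 297 together). On the other side it was 24.5 kb beyond the edge, 158 bp upstream of the start of Peg12, a further paternally expressed gene, at 62464668 (100.4 and 109 in the replicates, 210.5 together). Its match was on the plus strand, like the last one inside. Of 13 further genes of the domain and its neighbours, 7 had an optimal peak within 1 kb of a start, where 43.4% of protein-coding genes did. The 13 include Snhg14, which is noncoding, and the difference was not tested. Peg12 was one of the 7, and Snurf and Snhg14, which lie inside the span, were not.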

How the data were processed

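CTCF ChIP-seq peak lists from 2 replicates were analysed. The authors deposited, for each peak, a signal value and a −log10 q value. Per the deposited notes, 1 list was called on each replicate's alignment (300000 peaks each) and 1 on both replicates together. Optimal (68603 peaks) and conservative (65493) lists were thresholded by IDR. The peak caller, aligner, read depth and signal scale were not given in the sources used here, so a place without a peak is one where none was listed. The −log10 q was at its ceiling for 30 of the 31 peaks and was not used.

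Peaks on chromosomes 1 to 19 and X were kept, and 13 on scaffolds were left out. All 31 signals equal those of the list called on both replicates within 0.005. Replicate summits were matched within 100 bp. Genes and starts came from GENCODE M21, and further starts from RefSeq on GRCm38.p6. All 13 further listed genes were matched. A CTCF weight matrix of 20 bp was built on even-numbered autosomes, from their 2000 highest peaks, seeded by an over-represented word and not by a known motif. It was applied to both strands within 50 bp of each summit at a match probability of 1e-05, and oriented to its G-rich form. A repeated copy took the highest summit within 250 bp of its centre. Scripts (Python 3.11.15, pysam 0.24.0) were tested on simulated data.

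The 5 genes were always named, along with the peaks nearest their starts and the strongest peaks. The list of further genes was chosen, like the 5, with earlier results of these data known. The repeated copies, the Mir344 genes, the groups of peaks upstream of Ndn and the peak of best match were singled out after their values were seen. Alternatives tried were the conservative list, the upper 50% of peaks by signal, each replicate's own strongest peaks, spans with 0 and 50 kb outside, other start windows, other motif thresholds and windows, and other match distances.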

Additional observations from a re-analysis of the deposited data

How the results depend on the processing

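No paired analysis was possible because there is 1 group. The counts of peaks in the span (31), genes with a start peak (1) and motif matches (16) stayed within 1.5 times in all alternatives but those named next. In the stronger 50% of the list the span held 20 peaks, by construction, with a median percentile of 67.4 and a longest stretch of 779 kb. Within 5 kb of a start, 3 genes had a peak. With 0 kb outside, the median percentile was 57.9, the strong peaks beyond Mkrn3 being left out. Leaving out a replicate, which also drops the IDR threshold, gave 30 to 31 peaks, 1 gene and 16 matches. Of the 31 peaks, 28 were found without replicate 1 and 29 without replicate 2. The median percentile was then 60.6 to 65.2 and the longest stretch 755.21 to 755.22 kb. Motif counts ran from 11 at a match probability of 1e-06 to 20 at 1e-04. Depth is unknown, and 2 replicates of 1 tissue record limit all values.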
